A study of Mus musculus with 18 samples.

Results

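The cytosolic ribosomal protein genes were followed through the deposited count tables of sorted mouse cones. Members were the genes of the Ensembl 94 mouse annotation whose symbol starts with Rpl or Rps and a digit, the stalk genes Rplp0, Rplp1 and Rplp2, and Rpsa, leaving out symbols that mark pseudogenes with -ps and the Rps6k kinases. This rule gave 93 of the 54532 genes listed. Of these, 48 were counted with the large subunit and 32 with the small subunit. The first set includes Rpl6l and Rpl32l and the second Rps12l1, which are annotated as processed pseudogenes. The other 13 are paralogs, retrogenes and the binding protein gene Rps19bp1.

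The study asked whether Txnip, an arrestin-family protein that regulates glucose uptake, changes gene expression in cones that are not degenerating. All mice are labelled as wild type, and all eyes were injected as newborns with adeno-associated virus (AAV) carrying the cone marker H2BGFP, a green fluorescent histone fusion. Txnip retinas also received a vector that expresses Txnip from the human red opsin promoter, which is active in cones. The control groups therefore carried the marker vector as well. BALB/c, an albino strain, gave 6 control and 6 Txnip libraries at postnatal day 21, and C57BL/6J, a pigmented strain, gave 3 control and 3 Txnip libraries at postnatal day 35. Each library was made from 1000 sorted cones of 1 retina by a modified Smart-Seq2 protocol, which copies and amplifies full-length mRNA. Strain and age cannot be told apart here. The labels do not say which retinas came from the same mouse, so p-values measure the spread between these libraries only.

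A ribosome is built in the nucleolus from ribosomal RNA and about equal amounts of each ribosomal protein, and it reads mRNA on the small subunit and joins amino acids on the large subunit. The mRNAs of ribosomal proteins belong to the TOP class, named after the run of pyrimidines at the start of the mRNA through which the kinase mTORC1 and the RNA-binding protein LARP1 control their translation. Cones use much of their protein synthesis to renew the outer segment, and ribosomal protein mRNAs are among the steadily expressed mRNAs of most cells. Ribosomal protein genes have also left many processed pseudogenes in the mouse genome, so that reads from a gene and from a copy can be hard to separate.

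The libraries held 647712 to 5172156 counts, where a read pair was counted for each gene it overlapped. Txnip had 0 to 3 counts in control libraries and 663 to 8536 in Txnip libraries, as labelled. Cone markers made up 4.96% to 10.3% of counts. Rod markers made up 1.10% to 1.61% in 16 libraries and 2.48% and 2.26% in C57BL/6J control library 1 and Txnip library 2, and counts of genes that differ between the strains are given also without this pair. Ganglion cell markers summed to 0.0418% to 0.129% of counts in BALB/c and 0.0032% to 0.0121% in C57BL/6J, and amacrine markers to 0.0429% to 0.0888% and 0.0121% to 0.0385%.

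Between 86 and 91 of the 93 genes had at least 1 count in a library. The filter on low counts kept 83 of them in BALB/c and 84 in C57BL/6J and in the fit of all groups. The 9 that never passed were paralogs and retrogenes. Rpl10l, a testis paralog of Rpl10, had 0 counts in all 18 libraries, where a count of 0 allows at most 4.65 CPM (counts scaled to a common library size) in the shallowest library, for counting error only. Rpl39l had 1 count in all libraries together, and Rpl3l, the paralog of Rpl3 known from muscle, had 54. The others were Rps12l1 with 4 counts, Rpl6l with 7, Rps3a2 with 22, Rps3a3 with 31, Rpl32l with 34 and Rps27rt with 92.

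Levels were compared between genes as CPM per kilobase of exon, taken as the mean of the 4 group means so that each group weighs the same. The 84 genes that passed had a median of 23.0 CPM per kilobase, with quartiles of 14.5 and 42.0, and the highest lay 36.2-fold above the lowest. All 14751 genes tested in the fit of all groups had a median level of 5.22 CPM per kilobase, and 83 of the 84 (98.8%) lay above it.

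Rplp1, an acidic protein of the stalk that recruits translation factors, had the highest level per length, at 178 CPM per kilobase. In its groups Rplp1 ran from 144 ± 6.82 in C57BL/6J control cones (SD, n = 3) to 217 ± 15.9 in BALB/c Txnip cones (SD, n = 6). Rpl4, which lines the tunnel through which the new protein leaves, followed with 162 CPM per kilobase. Rpl8, close to the peptide-joining centre, had 147 and Rps15, at the site where tRNA meets mRNA, had 130 CPM per kilobase. Rplp1, Rpl4 and Rpl8 ranked 192nd, 212th and 234th among the 14751 genes.

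The lowest levels per length were those of the retrogene Rpl37rt with 4.93, Rps19 with 5.52, Rpl35a with 6.78, Rpl12, a stalk base protein, with 8.29 and Rps15a with 8.32 CPM per kilobase. Rps19, a small-subunit protein known for its loss in Diamond-Blackfan anaemia, had 17.5 to 38.7 CPM in single libraries and was thus measured in all of them. Exon length weighs on this order. With the length of the principal mRNA in place of all exonic bases, or with no length at all, only 2 of the 5 highest and 1 of the 5 lowest genes kept their place.

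**Figure D1:**
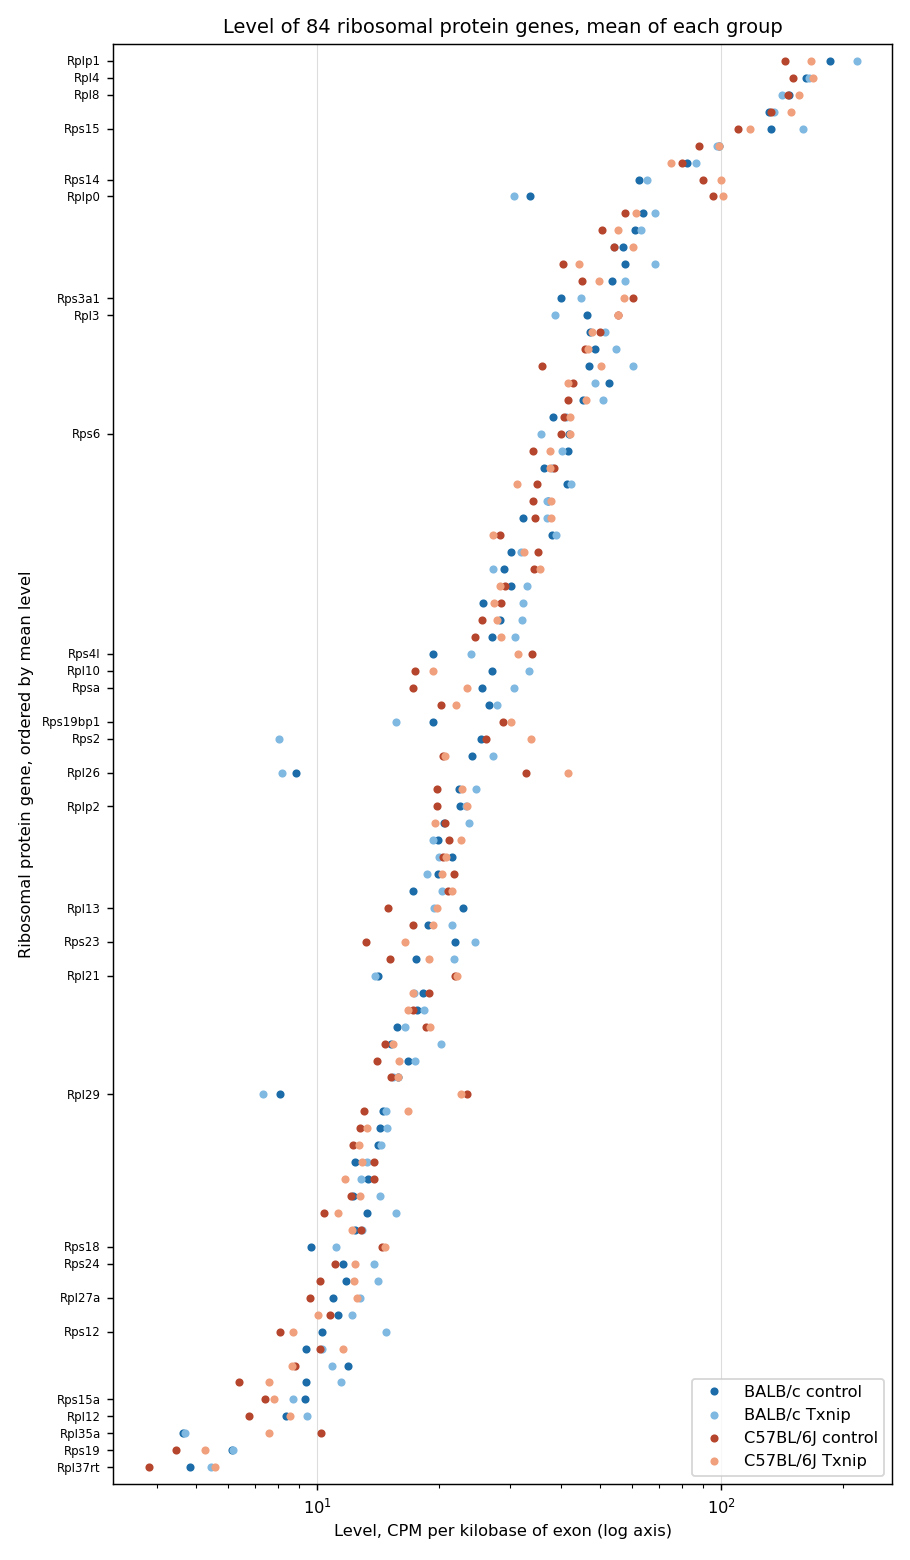
Level of each of the 84 ribosomal protein genes that passed the count filter, as CPM per kilobase of exon on a log axis, with 1 point for the mean of each of the 4 groups and genes ordered by the mean of the 4 group means, some of them labelled. Points of a gene lie close together for most genes, while Rplp0, Rpl26, Rpl29 and Rpl35a show BALB/c points well below C57BL/6J points and Rps2 shows BALB/c Txnip alone at the low end.

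The share of each mRNA that is found again in near-identical transcripts differed widely among the genes. Of the 10 highest genes, 8 had no stretch in a transcript of at least 99% identity. The 21 genes without such a stretch had a median of 46.6 CPM per kilobase, and the 61 genes with one had 20.7. Over the 82 genes with an mRNA searched, the rank correlation of level and this share was weak and changed sign with the identity asked for (Spearman's rho −0.183 at 99% and 0.169 at 95%, across genes, which are not independent replicates).

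The start of the mRNA was read for 68 of the 93 genes with a promoter in RefSeq (GRCm38.p6). A TOP-like tract was taken as a C with further C or T bases to at least 8 pyrimidines in all, starting within 10 bases of an annotated start on the strand of the gene. With any annotated start of a gene allowed, such a tract was found in 22 of the 68 genes (32.4%). It was found in 902 of 10095 other genes that passed the filter (8.94%) and in 2281 of all 27025 genes with a promoter (8.44%). The sequences below, 25 bases around the start on the gene's strand with the tract in capitals, are shown for Rps6, the ribosomal protein phosphorylated downstream of mTORC1, for Rpl35a, which differed between the strains, and for Rps24 and Rps12, which carry the smallest p for Txnip after Rps2 and the highest correlation with the ribosomal RNA locus in BALB/c. They lie at chr4:86857348-86857372 on the minus strand, chr16:33056477-33056501 on the plus strand, chr14:24490673-24490697 on the plus strand and chr10:23787190-23787214 on the minus strand.
Rps6: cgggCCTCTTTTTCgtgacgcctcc
Rpl35a: CCTTCCTCTTTCCgccatcttggcg
Rps24: ggtCCTTCCTTgcgcgttgatatga
Rps12: cggccaccgccggCCTTTTCCCCTg
The windows around the annotated starts of Rpl26, Rplp0, Rps2, Rpl4, Rpl10, Rpl13 and Rps23 held no match, which says only that these letters are not within the searched bases. Other annotated starts of Rpl35a and Rps24 had no tract either. The tract of Rps12 began only at base 9 counted from its annotated start.

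Together the 93 genes took 0.458% to 0.624% of the counts outside the ribosomal RNA locus. The share was 0.549% ± 0.0611 in BALB/c control cones (SD, n = 6) and 0.587% ± 0.0169 in BALB/c Txnip cones (SD, n = 6). It was 0.532% ± 0.0517 in C57BL/6J control cones and 0.562% ± 0.0545 in C57BL/6J Txnip cones (SD, n = 3 each). All 4 ranges overlapped. In these bulk libraries fewer cells with a given mRNA and less of that mRNA per cell cannot be told apart.

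The ribosomal RNA locus, 3 overlapping annotated genes at chr17:39846353-39848827, took 6.00% to 16.3% of all counts in BALB/c and 3.27% to 27.5% in C57BL/6J. Across the 12 BALB/c libraries the share of the ribosomal protein genes had a Pearson's r of 0.837 and a Spearman's rho of 0.503 with that of the locus, and across the 6 C57BL/6J libraries r was −0.759 and rho −0.657. These are descriptions, because the points share library preparation and depth. The BALB/c value rested on the control cones: r was 0.871 in the 6 control and 0.058 in the 6 Txnip libraries, and it was 0.37 over 10 libraries without the pair farthest from the median locus share. Over the 4 libraries left without such a pair, r was −0.348 and rho 0.2 in C57BL/6J, where rho thus changed sign, and r was −0.846 in BALB/c Txnip cones.

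Single genes mostly had the sign of the sum in each strain. Of 84 genes, 65 had a positive r with the locus share in BALB/c (median r 0.429, against −0.007 over all 14751 genes), and 61 had a negative r in C57BL/6J (median −0.538, against −0.086 over 14739 genes). Rps12, a small-subunit protein with 13.7% of its exonic bases shared with small nucleolar RNA genes, had the highest r in BALB/c (0.91), with 0.914 in C57BL/6J. Rps15 with 0.882 and Rpl12 with 0.878 followed in BALB/c. Rps2 stood at the other end with −0.843, before Rps6 with −0.816 and Rplp0 with −0.791. In C57BL/6J the highest r was that of Rpl30, with 0.941.

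**Figure D2:**
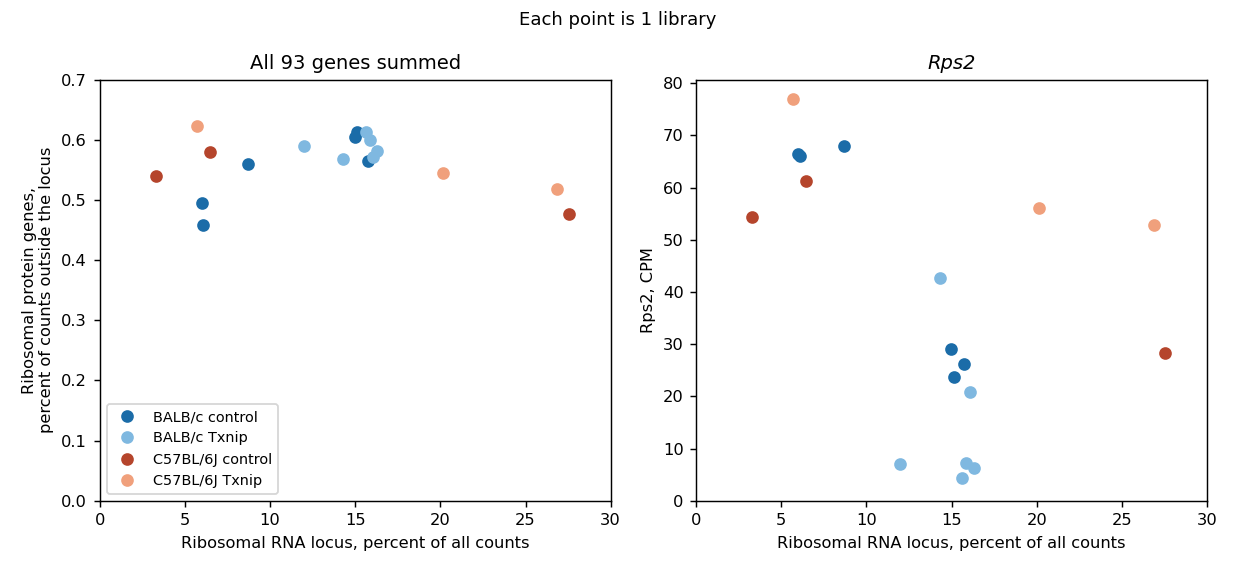
Left, percent of counts outside the ribosomal RNA locus that fell on the 93 genes against the percent of all counts on the locus, with 1 point a library. Right, Rps2 in CPM on the same horizontal axis. The 3 BALB/c control libraries with 6.00% to 8.70% of counts on the locus are the BALB/c libraries with the highest Rps2, at 66.05 to 67.9 CPM.

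Between the strains, control cones differed most in Rpl26, Rpl29, Rplp0 and Rpl35a, all higher in C57BL/6J. Of 84 genes tested, 12 (14.3%) passed an adjusted p of 0.05 (quasi-likelihood test of edgeR, Benjamini-Hochberg), against 17.5% of all 14751 genes. Of these, 9 were higher and 3 lower in C57BL/6J, where 8.03% and 9.52% of all genes passed in each direction. edgeR with scaling factors computed without these genes called 8 higher and 6 lower, against 17.3% of all genes in that fit, and DESeq2 called as many in each direction, 14 of the 89 genes to which it gave an adjusted p (15.7%), against 12.1% of all 21948 such genes (5% higher and 7.13% lower), which include more genes with low counts. The 84 genes had a median log2 fold change of −0.07 (all genes 0.00). For 12 genes (14.3%) the ranges of the control groups did not overlap, against 18.6% of all genes. Among them 8 were higher (8.98% of all genes) and 4 lower (9.66%). The counts by edgeR and of groups that do not overlap lie near or below the background.

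Rpl26 (ENSMUSG00000060938, GRCm38 chr11:68901583-68906989, plus strand) codes for a large-subunit protein at the exit of the tunnel. Its level in BALB/c control cones had a lowest value of 10.3, a median of 12.4 and a highest value of 17.8 CPM, and the C57BL/6J control libraries had 46.5, 45.8 and 49.6 CPM. In Txnip cones BALB/c ran from 6.19 over a median of 11.8 to 16.1 CPM, and C57BL/6J had 71.6, 47.0 and 62.3 CPM. All 6 C57BL/6J libraries thus lay above all 12 BALB/c libraries. The log2 fold change of C57BL/6J over BALB/c was 1.90 in control cones (SE 0.20, 3.73-fold, edgeR quasi-likelihood, Benjamini-Hochberg adjusted p = 6.71e-07) and 2.35 in Txnip cones (SE 0.21, 5.1-fold, adjusted p = 3.92e-08).

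Rplp0 (ENSMUSG00000067274, chr5:115559467-115563727, plus strand) codes for the protein that anchors the stalk. It ran from 45.4 over a median of 56.4 to 67.3 CPM in BALB/c control cones, and the C57BL/6J control libraries had 140, 134 and 201 CPM. In Txnip cones it ran from 48.0 over 51.2 to 54.0 CPM in BALB/c and had 239, 112 and 151 CPM in C57BL/6J. Again no C57BL/6J library overlapped a BALB/c library. The log2 fold change was 1.51 (SE 0.18, edgeR adjusted p = 2.61e-06) in control and 1.72 (SE 0.18, adjusted p = 5.25e-07) in Txnip cones.

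Rpl29 (ENSMUSG00000048758, chr9:106429454-106431568, plus strand), a small basic protein on the surface of the large subunit, ran from 7.44 over a median of 9.21 to 11.1 CPM in BALB/c control cones and had 19.1, 30.1 and 30.2 CPM in the C57BL/6J control libraries. In Txnip cones BALB/c ran from 4.65 over 8.54 to 10.7 CPM and C57BL/6J had 27.4, 22.8 and 26.3 CPM. The strains did not overlap in either condition, and the log2 fold change was 1.54 (SE 0.23, edgeR adjusted p = 4.49e-05) in control and 1.53 (SE 0.23, adjusted p = 5.32e-05) in Txnip cones.

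Rpl35a (ENSMUSG00000060636, chr16:33056453-33060189, plus strand), a large-subunit protein whose loss also causes Diamond-Blackfan anaemia, ran from 12.8 over a median of 15.9 to 22.1 CPM in BALB/c control cones. The C57BL/6J control libraries had 33.9, 33.7 and 40.5 CPM, all above the BALB/c range. Its log2 fold change was 1.14 in control cones (SE 0.21, edgeR adjusted p = 0.000412) and 0.72 in Txnip cones (SE 0.21, adjusted p = 0.0224).

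The other genes called higher in C57BL/6J control cones changed less. Rps4l, a retrogene of the X-linked Rps4x, had a log2 fold change of 0.80 (edgeR adjusted p = 0.0137), Rpl21 of 0.63, Rps18 of 0.59, Rps3a1 of 0.58 and Rps14 of 0.53. Lower in C57BL/6J were Rps23, part of the decoding site, with −0.74 (SE 0.21, adjusted p = 0.017), Rpl10, which completes the site where the subunits join, with −0.62 (SE 0.19, adjusted p = 0.0266), and Rpl13 with −0.62 (SE 0.16, adjusted p = 0.0115). Rps23 had 22.02 to 36.0 CPM in BALB/c control cones and 18.4, 17.9 and 13.9 CPM in the C57BL/6J control libraries. Rpl10 overlapped between the strains, with 37.2 to 76.5 CPM in BALB/c and 32.1, 42.6 and 33.0 CPM in C57BL/6J. Without C57BL/6J control library 1, the one rich in rod markers, 7 of 85 genes passed, against 14.6% of all genes in that fit, and Rpl10, Rpl13 and Rps4l were not among them (adjusted p = 0.095, 0.0616 and 0.0602).

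The strain comparison in Txnip cones uses other libraries than that in control cones, but the same fit set the filter, the scaling and the spread for both. Here 10 of 84 genes (11.9%) passed in edgeR, against 17.6% of all genes, with 8 higher and 2 lower in C57BL/6J where 8.24% and 9.38% of all genes passed. The ranges did not overlap for 17 genes (20.2%, against 17.9% of all genes), 8 higher (8.2% of all genes) and 9 lower (9.73%). In all 7 of 84 genes (8.33%) passed in both comparisons, against 11.1% of all genes. The 7 are 58.3% of those called in control cones and 70.0% of those called in Txnip cones: Rpl26, Rplp0, Rpl29, Rpl35a, Rpl21 and Rps14, all higher, and Rpl10, lower in C57BL/6J both times. Over all genes the same shares were 63.5% and 63.3%, close to those of the ribosomal protein genes. With only the groups compared in each fit, 9 genes passed in control cones (7 higher and 2 lower, against 16.5% of all genes) and 12 in Txnip cones (7 higher and 5 lower, against 17.7%). DESeq2 called 8 higher and 3 lower of 87 genes in Txnip cones (12.6%), against 6.12% and 8.76% of all genes with an adjusted p.

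Rps2 (ENSMUSG00000044533, chr17:24718116-24721929, plus strand), a protein at the mRNA entry channel, passed in Txnip cones alone, with a log2 fold change of 1.88 (SE 0.47, edgeR adjusted p = 0.00717). In control cones its value was 0.05 (SE 0.46, adjusted p = 0.96). Rps19bp1, a nucleolar protein that binds Rps19 and is no ribosomal protein itself, had 0.96 in Txnip cones (SE 0.21, adjusted p = 0.00294) and 0.58 in control cones (adjusted p = 0.0593). Without C57BL/6J Txnip library 1, 5 of 85 genes passed in Txnip cones, against 12.5% of all genes in that fit, and Rps19bp1 had an adjusted p of 0.0569. Leaving out both libraries rich in rod markers gave 9 of 85 genes in control cones, against 17.6% of all genes, and 12 of 85 in Txnip cones, against 20.3%.

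**Figure D3:**
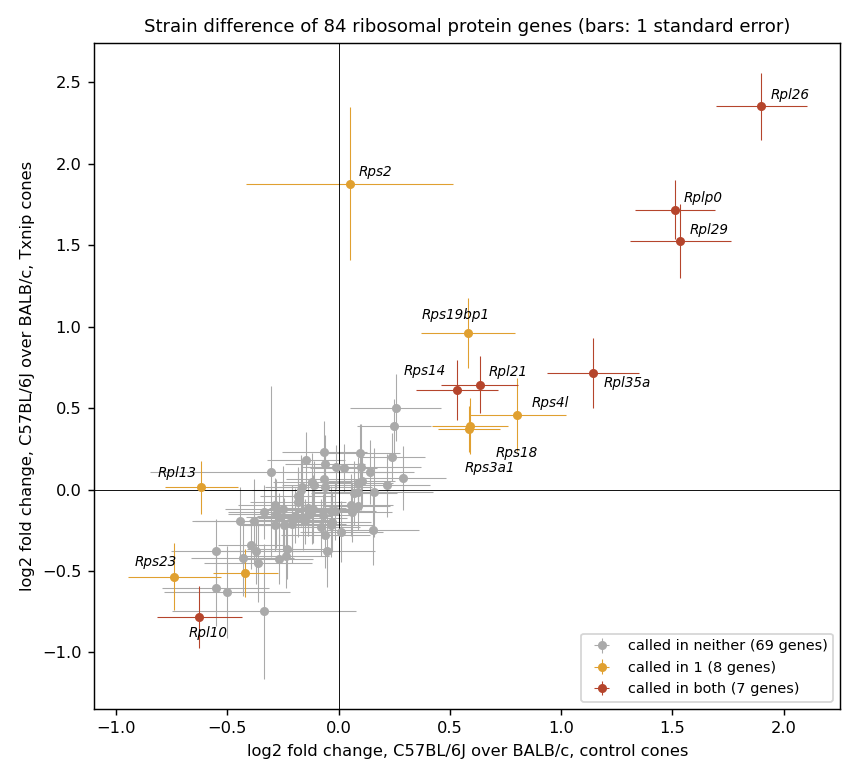
Log2 fold change of C57BL/6J over BALB/c in control cones (horizontal) and in Txnip cones (vertical) for 84 ribosomal protein genes, with bars of 1 standard error and colours for genes called in both, in 1 or in neither comparison. Rpl26, Rplp0, Rpl29 and Rpl35a lie far from the cloud around 0, and Rps2 is high on the vertical axis only.

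The genes that led the strain difference have near-identical copies in the genome. A copy was a gene outside the rule with at least 95% identity over 100 or more bases, covering at least 50% of the member's principal mRNA and of its own exonic bases. There were 494 copies of 66 members, and 485 were annotated as pseudogenes. Of the 31 copies with enough counts to test, which belong to 22 members, 11 (35.5%) were lower and 0 higher in C57BL/6J control cones by edgeR, where 9.52% of all genes were lower. In Txnip cones 11 were lower and 1 higher.

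The 11 copies lower in control cones belong to 8 members: Rpl26, Rplp0, Rpl29, Rps18, Rpl21, Rps28, Rps7 and Rpl3. Of these 8, 5 were called higher in C57BL/6J control cones, and 4 of the other 76 members tested. The gene was higher and the called copy lower in C57BL/6J for Rpl26, Rplp0, Rpl29, Rps18 and Rpl21. Gm15772, a copy of Rpl26, had 30.2 ± 5.23 CPM in BALB/c control cones (SD, n = 6) and 1.63 ± 0.18 CPM in C57BL/6J control cones (SD, n = 3). Gm9625, a copy of Rplp0, had 23.0 ± 2.04 and 0.79 ± 0.83 CPM. Gm8210, a copy of Rpl29, had 8.56 ± 3.60 CPM in BALB/c control cones and 0 counts in all 6 C57BL/6J libraries, with 7 to 52 counts in each BALB/c control library.

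How alike gene and copy are can be read from their sequences. Over 438 of the 526 bases of the Rpl26 mRNA, Gm15772 (chr5:3236431-3236868) differed at 2 positions, C224T and T335C, counted from 1 at the 5′ end of the mRNA with the member's base first (identity 99.5%). Gm8730 (chr8:102864845-102865798) differed from Rplp0 at 12 of 954 aligned bases (98.7%), and Gm8210 (chr1:43189156-43189638) from Rpl29 at 3 of 483 (99.4%), namely C113A, C341T and T464C. The windows of 25 bases from GRCm38 and GENCODE M21 around T335C, G679C and C341T are given with the differing base in capitals, at chr11:68903286-68903310 (plus) and chr5:3236706-3236730 (plus), chr5:115561413-115561437 (plus) and chr8:102865229-102865253 (minus), and chr9:106431254-106431278 (plus) and chr1:43189443-43189467 (plus).
Rpl26: cacaaccgtccaTgtgggcatccac
Gm15772: cacaaccgtccaCgtgggcatccac
Rplp0: cttctccttcggGctgatcatccag
Gm8730: cttctccttcggCctgatcatccag
Rpl29: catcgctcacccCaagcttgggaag
Gm8210: catcgctcacccTaagcttgggaag
Within the aligned stretch, only read pairs that cover a differing base can tell the mRNA of such a gene from its copy.

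Adding the counts of all copies to their gene, a step chosen after seeing the data, changed the largest differences. Rpl26 and its copies together had 36.3 to 56.7 CPM in BALB/c control cones and 49.0, 48.3 and 52.7 CPM in C57BL/6J control cones. The log2 fold change fell to 0.15 in control cones (edgeR adjusted p = 0.588) and to 0.65 in Txnip cones (adjusted p = 0.00687). Rps18 went to 0.00 in control cones (adjusted p = 0.994).

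Rplp0 kept a difference of 0.79 in control cones (edgeR adjusted p = 0.003) and 0.94 in Txnip cones (adjusted p = 0.000706). Its copies held 29.3 to 44.9 CPM in BALB/c and 0.00 to 3.05 CPM in C57BL/6J. Rpl29 kept 0.63 in control cones (adjusted p = 0.034) and had 0.37 in Txnip cones (adjusted p = 0.225).

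Rpl35a was hardly touched, with 1.02 in control cones (edgeR adjusted p = 0.000918) and 0.63 in Txnip cones (adjusted p = 0.0381). The copies of Rpl35a had low counts in both strains. Rps28 went the other way: its own counts gave −0.05 in control and −0.38 in Txnip cones, neither called, and the sum with its copies gave −0.55 (adjusted p = 0.0553) and −0.81 (adjusted p = 0.00557). With copies added, 11 of 84 genes passed in control cones and 10 of 84 in Txnip cones, against 17.5% of all genes in both.

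**Figure D4:**
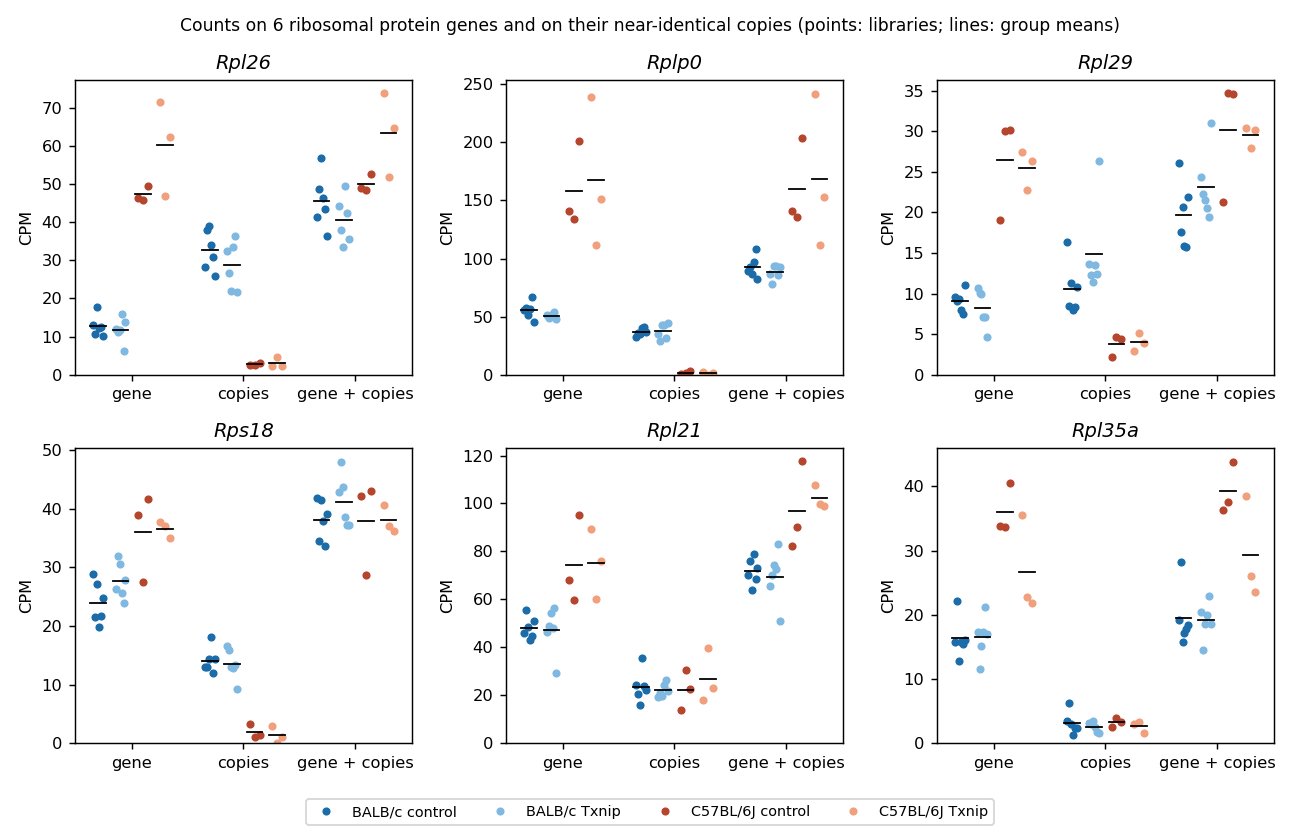
CPM of 6 ribosomal protein genes, of their near-identical copies summed, and of gene and copies together, with 1 point a library, lines at group means and colours for the 4 groups. For Rpl26, Rplp0, Rpl29 and Rps18 the gene is higher and the copies are lower in C57BL/6J, whereas the copies of Rpl21 and Rpl35a differ little in sum.

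The ratio of large-subunit to small-subunit counts also separated the strains. It was 1.36 to 1.49 in the 12 BALB/c libraries (median 1.44) and 1.5 to 1.605 in the 6 C57BL/6J libraries (median 1.53). The large-subunit sum holds Rpl26, Rplp0 and Rpl29, which differed most between the strains in control cones. Without these genes the ratio no longer separated the strains. It was then 1.323 to 1.44 in BALB/c (median 1.401) and 1.373 to 1.456 in C57BL/6J (median 1.411). Markers of other cells moved with the strain too: 6 of 6 ganglion cell and 5 of 7 amacrine markers were lower, and 4 of 10 rod and 4 of 12 cone markers higher, in C57BL/6J control cones by edgeR. Of 7 markers of Müller glia 2 were higher and 1 lower (median log2 fold change 0.89), of 7 bipolar cell markers none was called (median 1.18), and the single microglia marker tested was higher and the single pigment epithelium marker lower. Their part in the differences of the ribosomal protein genes was not tested.

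In the fits of all libraries of a strain, with the filter on low counts, Txnip changed no ribosomal protein gene past the threshold. Rps2 in BALB/c passed when BALB/c Txnip library 1 was left out or when the filter was dropped. In BALB/c 0 of 83 genes passed in edgeR, where 0.0166% of all genes did, and 0 of the 82 with an adjusted p in DESeq2, where 0.78% did. In edgeR 6 had an unadjusted p under 0.05, which 11.4% of all genes had. The log2 fold changes of Txnip over control had a median of 0.07 (all genes 0.00), with 58 positive and 25 negative values, and no gene had groups that did not overlap (0.699% of all genes, 0.316% higher and 0.383% lower). With the locus share, on a log2 scale, as a covariate the median was −0.02.

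Markers of other cells also differed in BALB/c between control and Txnip libraries, with none of them called. Amacrine markers summed to 0.0429% to 0.0701% of counts in control and 0.0721% to 0.0888% in Txnip libraries, with no overlap, and 5 of 6 tested had a positive log2 fold change (median 0.41). Positive too were 6 of 6 ganglion cell, 9 of 10 rod and 6 of 7 bipolar cell markers, with medians of 0.18, 0.23 and 0.24, and 4 of 12 cone markers (median −0.07). Their part in the values of the ribosomal protein genes was not tested.

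Rps2 showed the widest difference. Its level in the BALB/c control libraries was 23.8, 67.9, 29.1, 66.05, 66.4 and 26.2 CPM, and in the BALB/c Txnip libraries 42.6, 20.8, 7.24, 7.07, 4.42 and 6.20 CPM. The groups overlapped through Txnip library 1, while 4 of the 6 Txnip libraries lay below 8 CPM and all controls above 23 CPM. Those 4 libraries had 34, 11, 5 and 4 Rps2 counts, and in Txnip libraries 5 and 6 the floor of 3 counts lay at 2.65 and 4.65 CPM. Of the Rps2 mRNA, 93.6% is found again in other transcripts at 99% identity or more. The log2 fold change was −1.43 (95% interval −2.27 to −0.59, edgeR adjusted p = 0.179).

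This value depended on the libraries and on the model. Without BALB/c Txnip library 1 the log2 fold change of Rps2 was −2.20 (edgeR adjusted p = 0.0048). With the locus share as a covariate it was −0.73 (adjusted p = 0.873). With all genes of at least 1 count kept it was −1.43 (adjusted p = 8.13e-14), where the median of all genes was −0.23. The share of all genes called in that fit is not reported here, so the call cannot be set against it. Rps2 also shares 8.1% of its exonic bases with Snora64 and Snhg9, and Snora64, a small nucleolar RNA gene within Rps2, had 1.44 ± 0.83 CPM in BALB/c control and 0.30 ± 0.39 CPM in BALB/c Txnip cones, on 0 to 8 counts a library (SD, n = 6 each). Snhg9 went the other way, with 1.46 ± 0.68 and 2.72 ± 1.42 CPM, on 1 to 17 counts a library. The C57BL/6J libraries showed no such fall, with 54.4, 28.3 and 61.3 CPM in control and 77.0, 52.8 and 56.1 CPM in Txnip cones.

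Rps24, a small-subunit protein, had 60.4 to 79.1 CPM in BALB/c control and 76.4 to 99.96 CPM in BALB/c Txnip cones, a log2 fold change of 0.25 (SE 0.10, edgeR adjusted p = 0.336). Rpl3, which lies at the peptide-joining centre, had 117 to 178 and 99.2 to 137 CPM, a log2 fold change of −0.25 (SE 0.11, adjusted p = 0.377). Both pairs of ranges overlapped.

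In C57BL/6J 0 of 84 genes passed in edgeR, where 0.0154% of all genes did, and 0 of 91 in DESeq2 (0.00565% of all genes). In edgeR 0 had an unadjusted p under 0.05 (0.748% of all genes). The median log2 fold change was 0.08 (all genes 0.01), with 61 positive and 23 negative values, and it ran from −0.01 to 0.17 as single libraries were left out. For 4 genes the groups did not overlap (4.76%, against 4.42% of all genes), namely Rpsa, Rpl27a and Rpl36, higher with Txnip (2.22% of all genes), and Rps27, lower (2.2%). Rpl36 and Rps27 are named here after their values were seen. Of markers of other cells, none was called. Positive were 6 of 6 bipolar cell, 3 of 5 amacrine and 3 of 5 ganglion cell markers, with medians of 0.43, 0.64 and 0.14. Positive too were 3 of 10 rod, 2 of 6 Müller glia and 3 of 12 cone markers, with medians of −0.05, −0.24 and −0.06. Their part in the values of the ribosomal protein genes was not tested.

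Rpsa, the small-subunit protein that doubles as a laminin receptor, had 37.8, 64.8 and 61.8 CPM in C57BL/6J control and 73.0, 77.4 and 72.2 CPM in Txnip libraries (log2 fold change 0.43, SE 0.24, edgeR adjusted p = 1). Rpl27a had 26.7, 24.7 and 28.3 CPM in control and 36.1, 36.0 and 32.5 CPM in Txnip libraries (0.39, SE 0.21, adjusted p = 1). Rpl35a went the other way with −0.44 (SE 0.25, adjusted p = 1).

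The Txnip effect was not shown to differ between the strains for any of the 84 genes that passed the filter by edgeR's interaction test or by DESeq2, as for 0 of all 14751 genes in edgeR. In edgeR 2 genes had an unadjusted p under 0.05 (4.79% of all genes had), Rps2 with a difference in log2 fold change of 1.83 (SE 0.67, 95% interval 0.48 to 3.18, edgeR adjusted p = 0.906) and Rpl13 with 0.63 (SE 0.23, adjusted p = 0.906). With all genes of at least 1 count kept, edgeR called Rps2 for the difference (1.82, adjusted p = 2.11e-05), where the median of all genes was 0.34 and 0.425% of them were called. In the filtered fit Rpl26 came next with 0.45 (SE 0.30, adjusted p = 1).

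**Figure D5:**
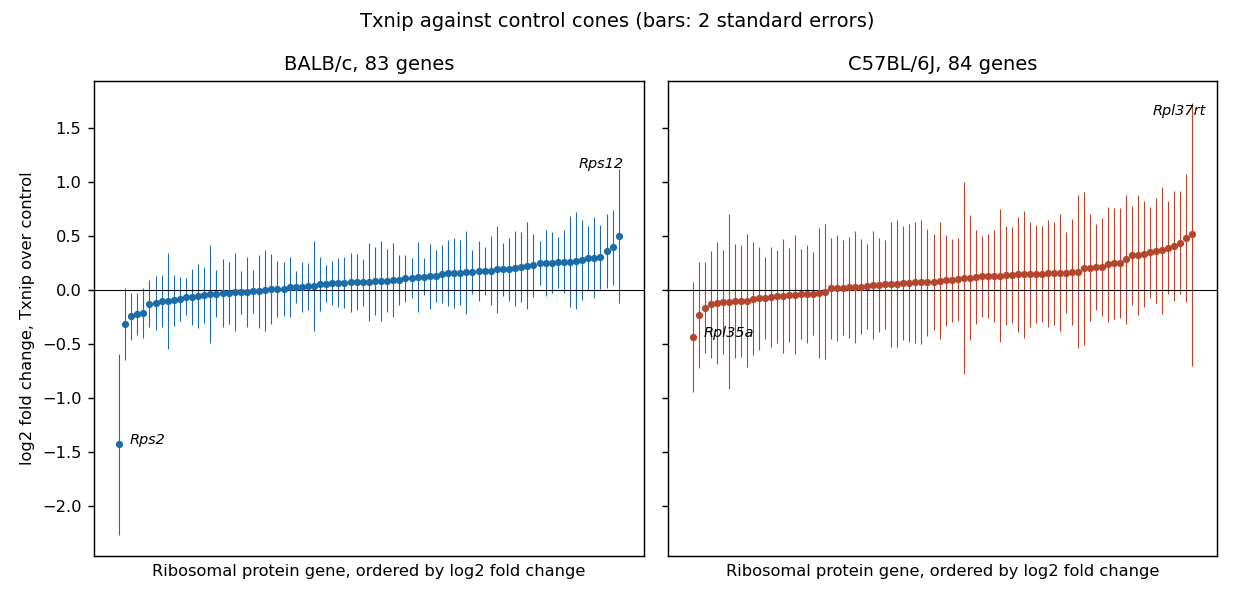
Log2 fold change of Txnip over control for each ribosomal protein gene, in BALB/c on the left and C57BL/6J on the right, with genes ordered by value and bars of 2 standard errors. Most points lie within a narrow band just above 0, and Rps2 in BALB/c stands far below it at −1.43.

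Within the functional groups of the ribosome, at most 1 gene of a group was called in a comparison. Of the stalk genes Rplp0, Rplp1, Rplp2 and Rpl12, 1 was higher in C57BL/6J in both strain comparisons, Rplp0, and the others had −0.37, −0.17 and −0.28 in control cones, not called. Rpl5 and Rpl11, which with 5S ribosomal RNA form the particle that restrains Mdm2, had 0.24 and 0.06. Of 9 exit tunnel genes 1 passed (Rpl26), of 4 at the mRNA entry and decoding sites 1 in each comparison (Rps23 lower in control, Rps2 higher in Txnip cones), and of 5 at the mRNA exit and platform 1 in each (Rps14, higher). Of all genes 8.03% (control) and 8.24% (Txnip) were higher and 9.52% and 9.38% lower, and 1 gene says nothing about a group this small.

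Rps6, the target of S6 kinase, had a log2 fold change for Txnip of −0.21 in BALB/c (SE 0.12, edgeR adjusted p = 0.49) and 0.07 in C57BL/6J (SE 0.28, adjusted p = 1). Rps27a, made as a fusion with ubiquitin, had 0.19 and 0.21, and neither gene was called between the strains. Among the paralogs tested, Rpl7l1, Rpl22l1, Rpl36al, Rps27l and Rpl37rt were called in none of the comparisons they entered, and Rpl37rt was too low to test in BALB/c alone.

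None of the genes listed around the ribosome was called for Txnip in either strain by edgeR. Between the strains, 3 of 14 genes of the mTORC1 axis were higher in C57BL/6J and 1 lower, in control and in Txnip cones alike, where 8.03% and 8.24% of all genes were higher and 9.52% and 9.38% lower. Lower was Eif4ebp1, a translation repressor that mTORC1 inactivates, with −2.86 in control and −2.56 in Txnip cones, and higher were its relative Eif4ebp2 (0.88 and 0.79), the S6 kinase gene Rps6kb2 (0.57 and 0.46) and Rptor (0.50 and 0.65), which recruits mTORC1 targets.

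Of 15 other TOP mRNAs, 3 were lower in C57BL/6J in both comparisons, where 9.52% and 9.38% of all genes were lower and 11.1% were called both times in either direction: the elongation factors Eef1a1 (−0.49 and −0.57) and Eef2 (−0.42 and −0.57) and Tpt1 (−0.60 and −0.61). Of 34 ribosome biogenesis genes tested, only Rrp12, an export factor of the small subunit, passed in control cones (−1.02), and none in Txnip cones. Of 14 genes of RNA polymerase I and its factors, none passed in control cones and Taf1a passed in Txnip cones (−0.85).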

How the data were processed

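The 18 libraries were assigned to 4 groups by the sample titles and treatment labels. The deposited values are raw counts, not normalized, that the authors made with featureCounts 1.6.2 from read pairs over Ensembl 94 exons (GRCm38). STAR is named in the submitters' processing notes, with its version not given in the sources used here. The counting used no strand and no option for pairs that align to several places, and counted a pair for each gene it overlapped. Both strains were counted on GRCm38, the genome of C57BL/6J, and GRCm38 copies were not compared with BALB/c sequence. The deposited tables per strain, which hold the authors' DESeq2 fold changes, p-values and the authors' mean counts, were not used.

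Symbols came from GENCODE M21 (54409 of 54532 identifiers matched). The main test was the quasi-likelihood test of edgeR 4.0.16 in R 4.3.3 (TMM, filterByExpr, Benjamini-Hochberg over all genes tested, threshold 0.05), within each strain for Txnip and in 1 fit of 4 groups for strain contrasts and the interaction, first tested on simulated counts. CPM use TMM-adjusted library sizes. Copies were searched with BLAST 2.17.0. Floors of 3 counts cover counting error only. Intervals of log2 fold changes were built from the standard errors of the edgeR fit, which include the spread between libraries. In all 36 pairs of libraries within a group counts differed by more than sampling noise.

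Members and lists were chosen with earlier results of these data known. Named were the 5 highest and 5 lowest levels per length, up to 5 called genes in each direction per comparison (or the 3 smallest p where fewer than 3 were called), the stalk, 5S particle, Rps6, Rps27a, paralogs and Rps19bp1, the ends of the correlation with the locus share, and called genes of other lists. Other genes called between strains are given by value only, and some genes that the rule names are not reported here. Alternatives were DESeq2 1.42.0, its size factors, no filter, TMM without the members, the locus left out, covariates for locus and rod share, robust estimation, the replicate block, other sets of groups, each library left out, other denominators and lengths, and, added after seeing the data, copies summed and both rod-rich libraries left out.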

Additional observations from a re-analysis of the deposited data

Results flagged for a closer look

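A total of 3 single values stood apart from their group of 6, by the gap to the nearest library relative to the range, among 34 groups examined, where chance alone sets about 1 in 20 apart. Rpl26 had 17.8 CPM in BALB/c control library 3, its highest in BALB/c, and still lay below every C57BL/6J library. Rpl27a had 40.9 CPM in the same library, above the other 5 controls. Rpl35a had 22.1 CPM in BALB/c control library 2, below the C57BL/6J control range.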

How the results depend on the processing

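Of 178 alternative values for counts, shares and correlations, 155 stayed on their side of the threshold or within the spread, and of 510 for single genes 493 did, 14 lost and 3 gained the call, and 0 reversed. With all genes that had at least 1 count, 1 gene was called for Txnip in BALB/c and 1 for the difference between strains, Rps2 both times, while the median of all genes moved to −0.23 and 0.34. For the BALB/c fit the share of all genes called is not reported here. Leaving out single libraries gave 0 to 1 genes for Txnip in BALB/c (0.0163% to 2.13% of all genes), 7 to 15 between strains in control cones (10.4% to 16.9%) and 5 to 12 in Txnip cones (11.9% to 18.7%). With the replicate number as a block, 0 genes were called for Txnip in BALB/c, in C57BL/6J and for the difference, and the numbers did not pair the libraries (correlations −0.10 to 0.14 and −0.05 to 0.07, with 0 libraries closest to their own number). With other lengths 2 and 2 of the 5 highest genes kept their place. Over all counts the correlation with the locus share was 0.513 (BALB/c) and −0.954 (C57BL/6J), with 0.695 in BALB/c on TMM-adjusted sizes, and 0.37 and −0.348 without 2 libraries. The member share over all counts was 0.486%, 0.499%, 0.470% and 0.468% (BALB/c control and Txnip, C57BL/6J control and Txnip), and on TMM-adjusted sizes 0.476%, 0.496%, 0.476% and 0.506%. In BALB/c Txnip cones it was also 0.606% without mitochondrial counts, 0.570% without paralogs and 0.630% with copies. The cause of these shifts was not tested. Depth limits most the retrogenes with few counts and copies near 0 counts.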

Other observations

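Other copies of ribosomal protein genes differed between the strains as well. Gm10260, a copy of Rps18 (chr13:97760072-97760632), had 10.8 ± 1.91 CPM in BALB/c control cones (SD, n = 6), and 0 to 1 counts in each C57BL/6J library. Gm20568 and Gm12943, copies of Rps28, had 6.16 ± 1.83 and 3.46 ± 0.95 CPM in BALB/c control cones, with 0 counts in the C57BL/6J control libraries. Among the copies called lower in control cones Rpl3-ps1 fell least, from 27.6 ± 3.92 CPM to 8.01 ± 1.05 CPM (SD, n = 6 and n = 3), and its gene Rpl3 was not called. In sum, copies of all members took 0.0403% ± 0.0010 of counts outside the ribosomal RNA locus in BALB/c control and 0.0266% ± 0.0011 in C57BL/6J control cones.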
